A study of Mus musculus with 30 samples.

Results

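Retinoic acid is made by oxidation of retinol that cells take up, is carried in the cytoplasm, and is bound by receptors or broken down. Along this route, 9 genes were followed through differentiation of mouse embryonic stem cells with and without Nr6a1. They were Stra6, Aldh1a2, Dhrs3, Cyp26a1, Crabp1, Crabp2, Rara, Rarb and Rarg. They were taken by name from a count table of 54134 genes, with earlier results of these libraries known. Of the 12149 genes with enough counts to be tested, 8 were among these 9; Rarb, with 6 counts over all 30 libraries, was the one left out.

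The 30 libraries were RNA-seq of cultures grown from the Bruce4 embryonic stem cell line in N2B27 medium, as 3 replicates at each of 5 stages in wildtype and in Nr6a1-/- cells, 10 groups in all. At d2 the cells had spent 48 h in FGF2. At d2.5 they had then received CHIR99021, an inhibitor of GSK3 that activates Wnt signalling, for 12 h, and at d3 for 24 h. At d4 the same condition had run for another 24 h, while at d4G Gdf11, a TGF-beta family ligand of the tailbud, had been present during that last day. The Nr6a1-/- cells were 1 clone made by CRISPR/Cas9, with a deletion in exon 4 on each allele that removes the DNA-binding domain of this nuclear receptor, so a difference between genotypes cannot be told apart from one between this clone and its parent line. Nothing in the labels says whether replicates were separate cultures, and p-values then measure the spread between these libraries, which may be technical.

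Retinol enters cells through Stra6, is oxidised to retinal, and is then oxidised irreversibly to retinoic acid by Aldh1a2 in the early embryo, while Dhrs3 turns retinal back into retinol and Cyp26a1 hydroxylates retinoic acid for clearance. In the elongating embryo Aldh1a2 marks the somites and presomitic mesoderm and Cyp26a1 the tailbud, so that retinoic acid is kept low where axial progenitors reside. Crabp1 and Crabp2 carry retinoic acid in the cytoplasm, and Rara, Rarb and Rarg, paired with an Rxr partner, bind retinoic acid response elements in DNA, often direct repeats of a hexamer spaced by 5 bases (DR5).

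Letters of this form were found before the start sites of Cyp26a1 and Rarb alone among the genes that could be searched, and both windows are shown for that reason. RefSeq promoter windows of 300 bases (250 before the start site to 50 after it, GRCm38.p6) were matched by symbol for 8 of the 9 genes, 17 windows in all. Crabp2 had no window and was not searched. They were searched on both strands for the core hexamer AGGTCA, for its variants GGGTCA and AGTTCA, and for GGTTCA, and for direct repeats of any of these on 1 strand. The Cyp26a1 window is chr19:37697558-37697857 on the plus strand and the Rarb window is chr14:16575427-16575726 on the minus strand, each printed 5′ to 3′ along its gene with the DR5 match in capitals.
Cyp26a1: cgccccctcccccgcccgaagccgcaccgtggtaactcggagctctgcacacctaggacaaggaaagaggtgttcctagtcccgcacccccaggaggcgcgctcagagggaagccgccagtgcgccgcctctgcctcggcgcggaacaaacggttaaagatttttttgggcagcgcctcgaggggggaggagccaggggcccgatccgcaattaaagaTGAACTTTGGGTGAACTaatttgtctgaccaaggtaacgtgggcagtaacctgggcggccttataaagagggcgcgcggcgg
Rarb: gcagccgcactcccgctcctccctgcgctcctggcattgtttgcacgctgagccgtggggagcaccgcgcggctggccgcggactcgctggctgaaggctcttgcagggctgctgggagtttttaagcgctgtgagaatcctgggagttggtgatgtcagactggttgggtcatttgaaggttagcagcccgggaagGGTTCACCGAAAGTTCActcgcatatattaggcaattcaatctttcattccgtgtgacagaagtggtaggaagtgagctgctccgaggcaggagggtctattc
The 17-base match lay 16 to 32 bases before the Cyp26a1 start, on the opposite strand, where it reads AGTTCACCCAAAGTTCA, and 37 to 53 bases before the Rarb start on the gene's own strand. A DR5 match occurred in 32 of all 32851 windows (0.0974%), whereas at least 1 hexamer, alone or in a repeat, occurred in 43.7% of them and, among these genes, in windows of Cyp26a1, Rara, Rarb, Rarg and Stra6. Repeats spaced by 1 base (0.222% of all windows), by 2 bases (0.268%) or by none, the unspaced AGGTCA repeat that Nr6a1 itself binds (0.00609%), were in no window of the 8 genes. A match describes letters and is not a measured binding site.

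Library totals ran from 1570714 to 3688197 counts with a median of 2366002, and 3 counts, the most that a count of 0 allows, stood for 0.813 to 1.91 CPM, counts scaled to library size, in a library. Levels are given as CPM after trimmed mean of M-values (TMM) normalisation; reads were primed at the poly(A) tail, so they were not divided by transcript length. A gene was called at a false discovery rate (FDR) below 0.05 in edgeR's quasi-likelihood test, and ± after a log2 fold change is its standard error. Counts of Nr6a1 were not lower in Nr6a1-/- at any stage (log2 differences of 0.15 to 1.19), but the libraries read the 3′ end and not exon 4, so this does not check the genotype. The neuromesodermal progenitor list (T, Sox2, Nkx1-2, Cdx2, Fgf8 and Wnt3a) summed to 125 to 148 CPM in wildtype at d2 and 742 to 783 CPM at d3, with all 6 detected. At d4, wildtype replicate 2 stood apart on markers, with 136 CPM over 7 pluripotency and epiblast markers against 34.2 and 40.5 CPM in the other wildtype libraries. Calls of the 8 tested genes that change without it are marked. Calls of marker genes and of further retinoid genes were not checked without it. Over all genes, d4 Nr6a1-/- replicate 1 was the library least like its own group. Its pairs gave a chi-square per gene of 5.64 and 6.68, the highest of all replicate pairs.

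Between the genotypes, the synthesis and reduction enzymes, the clearing enzyme, the importer and both binding proteins differed at some stage, and the tested Rar receptors differed at none. Of the 8 tested genes, 1 was higher and 1 lower in Nr6a1-/- at d2, where 4.07% of all tested genes were called in either direction. The d2.5 counts were 1 higher and 3 lower (6.45% of all genes) and the d3 counts 2 higher and 3 lower (10.8%). By d4 5 were higher and 0 lower (18.9%), and with Gdf11 3 were higher and 1 lower (7.9%). The median log2 difference of the 8 was -0.44, -0.81, -0.36, 0.55 and 0.24 in stage order, whereas over all genes it stayed between -0.009 and 0.018. The genes were chosen with earlier results of these libraries known, so the counts describe this set.

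**Figure D1:**
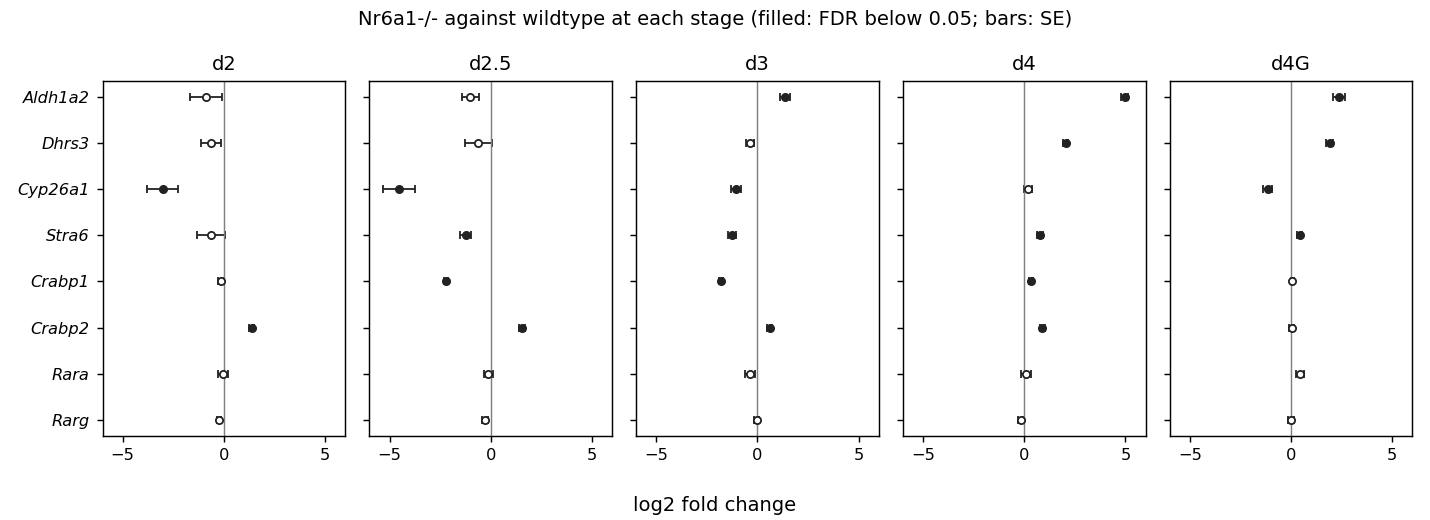
Log2 fold change of Nr6a1-/- against wildtype for the 8 tested genes at each stage, with bars for the standard error (n = 3 libraries per group) and filled points for an edgeR FDR below 0.05. Aldh1a2 moved from -0.87 at d2 to 4.96 at d4, Crabp1 from -2.21 at d2.5 to 0.33 at d4, and every point for Rara and Rarg is open.

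Aldh1a2 (ENSMUSG00000013584, chr9:71215789-71296243, plus strand) makes retinoic acid and showed the widest separation at d4. In wildtype its 3 libraries held 1.75, 0 and 1.72 CPM at d2, then 4.29, 7.11 and 4.05 by d2.5, then 11.1, 9.67 and 6.8 by d3, and 11.8, 11.3 and 12.9 by d4. In Nr6a1-/- they held 0.941, 1.12 and 0 CPM at d2, then 4.22, 1.75 and 1.79 by d2.5, then 17.7, 27.8 and 24.2 by d3, and 369, 386 and 373 by d4. The genotypes overlapped at d2 and d2.5 and were apart from d3. Wildtype cells rose too but reached no more than 12.9 CPM, whereas Nr6a1-/- cells passed that level after d2.5.

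The difference was 2.55-fold at d3 (log2 1.35 ± 0.242, edgeR FDR = 0.000164) and 31.2-fold at d4 (log2 4.96 ± 0.167, edgeR FDR = 1.22e-22). At d4 the counts behind it were 2525 in Nr6a1-/- and 111 in wildtype, a ratio after scaling of 31.3 with a 95% interval of 25.9 to 38.2 for counting error only. Before that, neither difference was called (edgeR FDR = 0.644 and 0.183), with 95% intervals on the log2 scale of -2.47 to 0.74 at d2 and -1.87 to -0.12 at d2.5. With Gdf11 the level was 25.5, 19.7 and 19.7 CPM in Nr6a1-/- and 6.05, 4.06 and 2.53 CPM in wildtype, without overlap and 5.17-fold apart (edgeR FDR = 2.7e-07). The study itself counted Aldh1a2 among mesodermal progenitor genes examined in these libraries at d3, so its direction there is not independent evidence. In embryos with Nr6a1 deleted in axial progenitors, the study reported no major genotype differences in when or where Aldh1a2 and Cyp26a1 were expressed. That comparison was of patterns in tissue and not of levels in culture.

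The presomitic and paraxial mesoderm markers moved the same way. Their 7-gene list (Tbx6, Msgn1, Meox1, Hes7, Dll1, Foxc1 and Tcf15) summed to 860 to 888 CPM in Nr6a1-/- and 356 to 442 CPM in wildtype at d4, and 5 of its 6 tested genes were called higher. At d3 the sums were 108 to 139 and 65.6 to 86.4 CPM with Meox1 at 0 in wildtype, and at d4G 306 to 331 and 168 to 202 CPM. The neuromesodermal progenitor list was also higher in Nr6a1-/- at d3, at 984 to 1130 against 742 to 783 CPM. At d4 it summed to 417 to 555 against 370 to 400 CPM. At both stages 3 of its 6 genes were called higher and 1 lower. Its sum at d4G was lower in Nr6a1-/-, at 183 to 211 against 290 to 312 CPM, with 1 gene called higher and 4 lower. The 6-gene endoderm list moved the other way at d4, from 49.2 to 64.5 CPM in wildtype to 4.69 to 9.19 CPM in Nr6a1-/-, with Ttr at 0 and all 5 tested genes called lower. The 5-gene neural progenitor list was also lower at d4, at 17.7 to 23.5 against 2.6 to 5.11 CPM with Olig2 at 0 in Nr6a1-/-, and 3 of its 4 tested genes were called, as were 4 of 7 pluripotency and epiblast genes, all lower (34.2 to 136 against 19.2 to 24.2 CPM). The 136 CPM was that of wildtype replicate 2, which stood apart, and the marker calls were not checked without it. The part of these markers in the Aldh1a2 result was not tested, and in bulk samples more cells of a type and more RNA per cell cannot be told apart.

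Dhrs3 (ENSMUSG00000066026, chr4:144892827-144928209, plus strand), which works against net oxidation of retinol, rose together with Aldh1a2 at d4 and kept its difference at d4G. Before d3 it was near the limit of detection, with at most 3.5 CPM in any library, and at d3 it was at 23.2, 22.1 and 20 CPM in wildtype and 18.5, 18 and 14.9 in Nr6a1-/- (log2 -0.35, 95% interval -0.75 to 0.05, not called). At d4 wildtype libraries held 28.8, 27.6 and 35.7 CPM and Nr6a1-/- libraries 102, 147 and 133. These do not overlap, and the difference was 4.12-fold (log2 2.04 ± 0.142, edgeR FDR = 7.97e-14). At d4G the levels were 20, 26 and 25.3 CPM in wildtype and 82.7, 93 and 94.4 in Nr6a1-/-, 3.76-fold apart (edgeR FDR = 1.53e-11).

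Cyp26a1 (ENSMUSG00000024987, chr19:37697798-37701536, plus strand), the clearing enzyme of the tailbud, was lower in Nr6a1-/- at every stage but d4. At d2 wildtype held 2.62, 2.66 and 2.41 CPM and Nr6a1-/- 0, 0 and 0.759, and at d2.5 wildtype held 4.76, 2.54 and 4.55 and Nr6a1-/- 0.384, 0 and 0. The genotypes were apart but the counts were few, 18 against 2 and 24 against 1. Scaled for library size, wildtype exceeded Nr6a1-/- 9.45-fold at d2 (95% counting interval 2.26 to 84) and 32.8-fold at d2.5 (5.35 to 1350). Both were called (edgeR FDR = 0.0148 and 0.00015), the first of them not by DESeq2 (adjusted p = 0.0619), and not without d2 Nr6a1-/- replicate 1 or 2 (edgeR FDR = 0.0748 and 0.104).

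By d3 Cyp26a1 was well above those limits, with 18.3, 18 and 20 CPM in wildtype and 10, 8.98 and 7.81 in Nr6a1-/-, again without overlap and lower by 1.07 ± 0.243 on the log2 scale in Nr6a1-/- (edgeR FDR = 0.00253). At d4 the ranges overlapped, at 23.5, 24.6 and 27.3 CPM in wildtype and 20.8, 38.2 and 27.3 in Nr6a1-/- (log2 0.18, 95% interval -0.20 to 0.56). At d4G they were apart once more, at 34.9, 46.3 and 33.7 against 18.3, 18.5 and 15 CPM. Nr6a1-/- was 2.24-fold lower there (log2 -1.16 ± 0.202, edgeR FDR = 9.12e-05).

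The endoderm list was lower in Nr6a1-/- at each stage at which Cyp26a1 was, and also at d4, where Cyp26a1 was not. Its sum was 15.5 to 22.3 CPM in wildtype against 0.749 to 4.55 at d2, with Foxa1 at 0 in both, and 24.3 to 35.9 against 2.8 to 5.75 in the d2.5 libraries. It was 39.6 to 49.7 against 4.09 to 8.43 CPM at d3, with Foxa1 at 0 in both, and 61.1 to 81 against 5.29 to 9.01 CPM at d4G. Of its 5 tested genes 4, 4, 3 and 4 were called lower at these stages, and its part in the Cyp26a1 result was not tested.

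**Figure D2:**
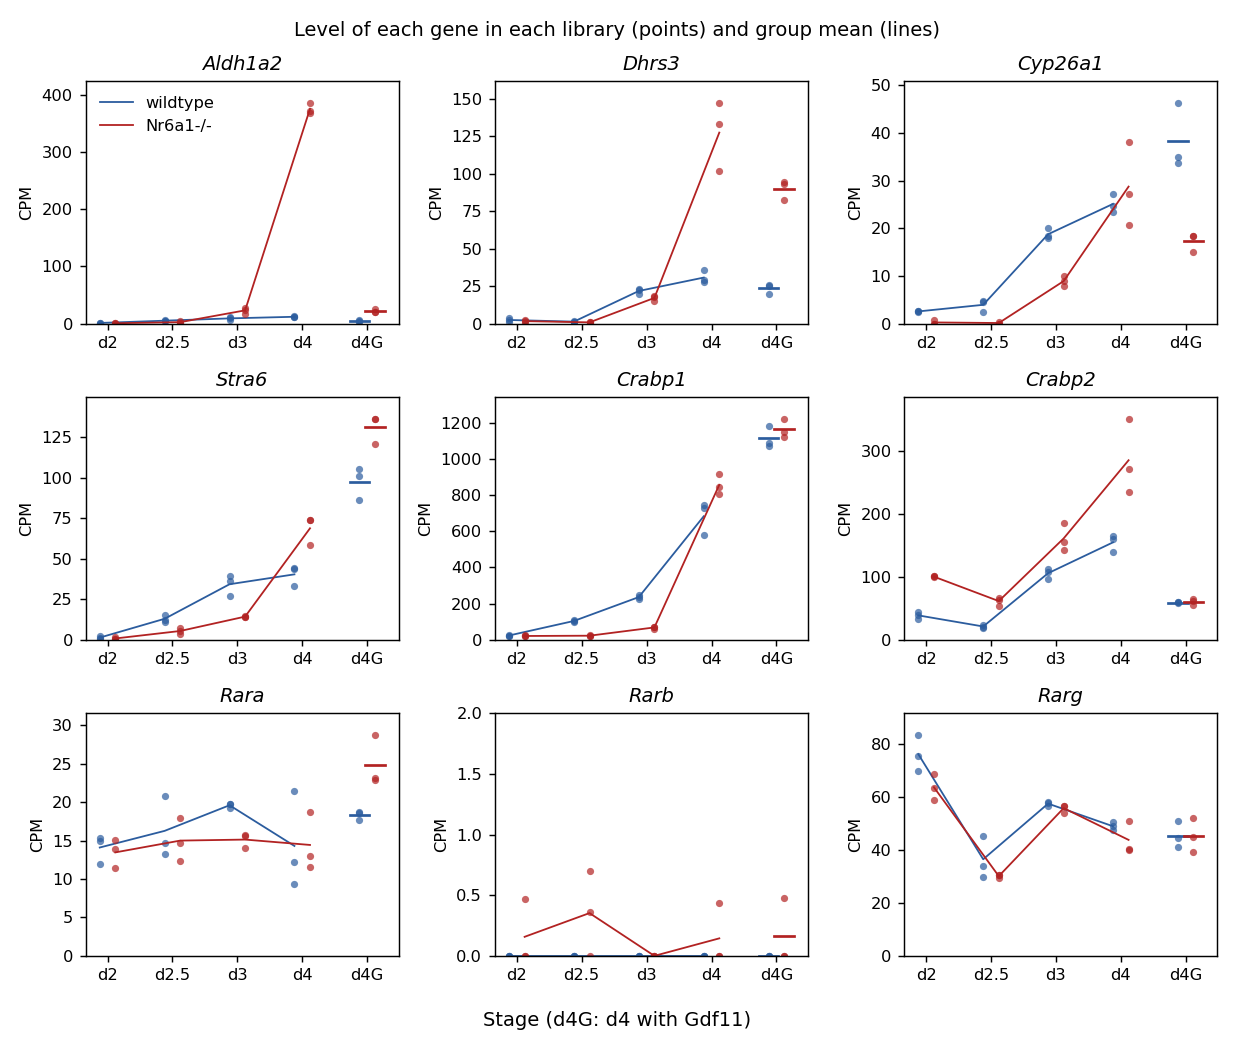
Level of each of the 9 genes in CPM (linear axes from 0, a different scale in each panel) in every library at d2, d2.5, d3, d4 and d4G, with lines through the means of d2 to d4 and a bar at the d4G mean (3 libraries each, blue wildtype and red Nr6a1-/-). Aldh1a2 in Nr6a1-/- at d4 lies between 369 and 386 CPM, above every other library, and Rarb does not exceed 0.7 CPM in any.

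Set against each other within a library, where depth cancels unless counts are few, the counts of Aldh1a2 and Cyp26a1 shifted towards synthesis in Nr6a1-/-. The log2 ratio of Aldh1a2 to Cyp26a1, with 0.5 counts added to each, was -1.04 ± 0.432 in wildtype and 1.34 ± 0.464 in Nr6a1-/- at d3 (SD, n = 3). At d4 it was -1.06 ± 0.0628 and 3.74 ± 0.406, and at d4G -3.19 ± 0.616 and 0.32 ± 0.199. From d2.5 on, the lowest Nr6a1-/- library lay above the highest wildtype one, at 2.94 against 1.4 at d2.5, 0.803 against -0.712 at d3, 3.33 against -0.987 at d4 and 0.0946 against -2.48 at d4G. The d2.5 ratios in Nr6a1-/- rest on 21 Aldh1a2 counts and 1 Cyp26a1 count. Cyp26a1 was at 0 in replicates 2 and 3 there, so the added 0.5 sets the size of those ratios. Aldh1a2 itself was not higher in Nr6a1-/- at d2.5, with 31 counts in wildtype. At d2 the genotypes overlapped, with SDs of 1.72 and 2.83 from 9 Aldh1a2 and 18 Cyp26a1 counts in wildtype and 5 and 2 in Nr6a1-/-.

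The balance thus changed side between genotypes at d3, d4 and d4G: Cyp26a1 counts were the larger in wildtype and Aldh1a2 counts the larger in Nr6a1-/-. In summed counts Aldh1a2 was 0.474 times Cyp26a1 in wildtype at d4 and 13.2 times in Nr6a1-/-, and at d4G 0.108 and 1.27 times. These are ratios of 3′ reads between genes, given without a test because the pair was chosen for its roles with its values known, and they are not enzyme activities.

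**Figure D3:**
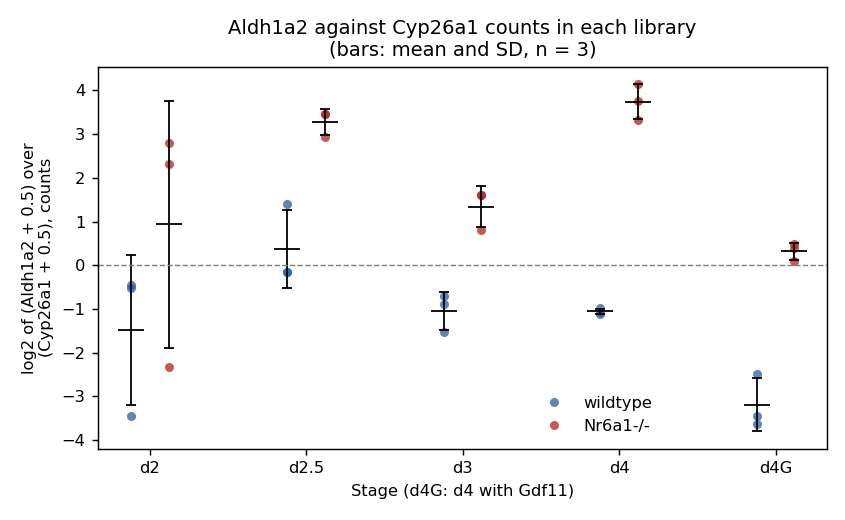
Log2 ratio of Aldh1a2 to Cyp26a1 counts (0.5 added to each) in every library by stage, with black bars for the mean and SD of 3 libraries and a dashed line at equal counts. From d3 to d4G the wildtype points lie below 0 and the Nr6a1-/- points above it.

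Stra6 (ENSMUSG00000032327, chr9:58063788-58153996, plus strand), the retinol importer, was first lower and later higher in Nr6a1-/-. At d2 no library exceeded 2.19 CPM. At d2.5 wildtype held 12.4, 11.2 and 15.2 CPM against 3.84, 7 and 5.37 in Nr6a1-/-, and at d3 39.1, 36.4 and 27.2 against 14.9, 14.1 and 13.8. Nr6a1-/- libraries lay below all wildtype ones, 2.36-fold at d2.5 and 2.38-fold at d3 (edgeR FDR = 0.0028 and 9.47e-06). At d4 the order had turned, with 44, 33.2 and 43.8 CPM in wildtype and 58.5, 74 and 73.7 in Nr6a1-/-, again without overlap and 1.71-fold higher in the latter (log2 0.78 ± 0.141, edgeR FDR = 7.94e-05). At d4G the levels were 101, 105 and 86 against 136, 136 and 121 CPM, 1.34-fold apart (edgeR FDR = 0.0282), and this call held in 6 of 14 alternative analyses. On the opposite strand Stra6 overlaps Ccdc33, which held 15 counts in all.

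The binding proteins differed in opposite directions at d2.5 and d3, with Crabp1 lower and Crabp2 higher in Nr6a1-/-. At d2 only Crabp2 was called, at d4 both were called higher, and at d4G neither was called. Crabp1 (ENSMUSG00000032291, chr9:54764748-54773110, plus strand) overlapped between genotypes at d2, with 23.2, 26.6 and 20.6 CPM in wildtype and 19.8, 19.1 and 23.5 in Nr6a1-/- (log2 -0.15, 95% interval -0.46 to 0.16). At d2.5 wildtype had risen to 110, 103 and 98.7 CPM while Nr6a1-/- held 25.7, 21 and 20.4, and at d3 wildtype held 246, 234 and 228 against 71.5, 60.7 and 72.2. No libraries overlapped, and Nr6a1-/- was 4.64-fold lower at d2.5 (log2 -2.21 ± 0.122, edgeR FDR = 1.82e-15) and 3.46-fold lower at d3 (log2 -1.79 ± 0.1, edgeR FDR = 2.13e-15).

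By d4 Crabp1 was no longer lower in Nr6a1-/-, at 728, 578 and 743 CPM in wildtype and 917, 845 and 809 in Nr6a1-/-. The small excess of 0.33 on the log2 scale (edgeR FDR = 0.00454) was lost without wildtype replicate 2, the library that stood apart on markers (log2 0.20, edgeR FDR = 0.112), and when only the 6 libraries compared were fitted (edgeR FDR = 0.121). At d4G the gene reached 1090, 1070 and 1180 CPM in wildtype and 1220, 1120 and 1150 in Nr6a1-/-, overlapping, with a log2 difference of 0.06 (95% interval -0.11 to 0.23).

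Crabp2 (ENSMUSG00000004885, chr3:87948666-87953376, plus strand), which passes retinoic acid on to the receptors, was higher in Nr6a1-/- from d2 to d4. The libraries held 44.2, 32.9 and 39.2 CPM in wildtype against 99.3, 101 and 101 at d2, and 23.3, 20.8 and 19.2 against 63.3, 66.9 and 54.4 at d2.5. Nr6a1-/- was 2.58-fold and 2.9-fold higher, without overlap (edgeR FDR = 1.01e-08 and 2.52e-08). At d3 the levels were 113, 96.7 and 108 against 186, 155 and 143 CPM (1.52-fold, edgeR FDR = 0.000495) and at d4 165, 140 and 160 against 351, 235 and 271 CPM (1.85-fold, edgeR FDR = 1.19e-07), still apart. At d4G the genotypes overlapped at 59.6, 58.1 and 59.9 against 64.5, 54.8 and 60.9 CPM, with a log2 difference of 0.03 (95% interval -0.26 to 0.31). The stem cells had been kept on feeder fibroblasts, removed before differentiation. A 7-gene feeder list summed higher in Nr6a1-/- at d2 (33.4 to 39.1 against 16.5 to 22.7 CPM), d2.5 (31.1 to 33.3 against 20.2 to 27.2) and d3 (61.4 to 74.8 against 47.4 to 55.2). It was lower at d4 (17 to 23 against 25.7 to 29.6), and 0 of its 4 tested genes were called at d2 or at d2.5. Its part in the Crabp2 result was not tested.

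The makeup of the Crabp counts therefore differed early and converged late. Crabp1 made up 82.4 to 83.7% of them in wildtype at d2.5 and 23.9 to 28.9% in Nr6a1-/-. At d3 the shares were 67.8 to 70.8% and 27.8 to 33.5%, at d4 80.5 to 82.3% and 72.3 to 78.2%, and at d4G 94.8 to 95.2% and 95 to 95.3%. The summed level of the pair in Nr6a1-/- exceeded wildtype at d2, at 119 to 125 against 59.5 to 67.3 CPM, and was below it at d2.5, at 74.8 to 89 against 118 to 133 CPM. It was below wildtype at d3 too, at 215 to 257 against 331 to 359 CPM, and above it at d4, at 1080 to 1270 against 718 to 904 CPM. At d4G the sums overlapped, at 1180 to 1280 against 1130 to 1240 CPM. Fabp5, which carries retinoic acid to another nuclear receptor, was higher in Nr6a1-/- at d2.5 and lower at d4 and d4G (log2 0.59, -0.60 and -0.84).

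The receptors were the steady members. Rarg (ENSMUSG00000001288, chr15:102234938-102257517, minus strand) had a mean of 76 CPM in wildtype and 63.6 in Nr6a1-/- at d2, its highest, and over all libraries it ranged from 29.2 to 83.1 CPM. Rara (ENSMUSG00000037992, chr11:98927818-98974942, plus strand) ranged from 9.31 to 28.7 CPM. Neither was called between genotypes at any stage, with log2 differences of -0.28 to 0.00 for Rarg and -0.37 to 0.45 for Rara. The widest 95% interval for Rarg was -0.57 to 0.01, at d2.5, and those for Rara reached -0.82 at d3 and 0.89 at d4G, so differences of that size remain possible. Rarg made up 57.6 to 85.2% of the Rar counts in every library.

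Rarb (ENSMUSG00000017491, chr14:16430839-16819156, minus strand) had 6 counts in all and 0 in 25 of 30 libraries, the 15 wildtype ones included, and was not tested. The gene body overlaps that of Top2b, on the opposite strand, by 4624 bases, and all of the last 500 exonic bases of Rarb at its 3′ end lie within exons of Top2b, which held 3909 counts. Whether counting used the strand is not given in the sources used here, and reads that fit both genes can be left out of both, so a level of Rarb below the detection limit was not shown.

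Within each genotype, d2.5 to d3 was the step at which the most members rose. In wildtype, 3 rose and 2 fell from d2 to d2.5 (25.4% of all genes were called), 6 rose and 0 fell from d2.5 to d3 (11.5%), and 3 rose and 0 fell from d3 to d4 (21.1%). In Nr6a1-/- the counts were 2 and 2 (24.1%), 7 and 0 (15.9%), and 6 and 1 (25.9%). These steps share libraries with one another and with the comparisons of genotypes.

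The first 12 h of CHIR99021 raised Stra6 9.78-fold in wildtype and 6.4-fold in Nr6a1-/- (edgeR FDR = 2.6e-08 and 5.57e-05). Rarg fell by 1.05 and 1.08 on the log2 scale and Crabp2 by 0.88 and 0.71, all called. Crabp1 rose 4.47-fold in wildtype (edgeR FDR = 5.13e-16), whereas in Nr6a1-/- the log2 change was 0.10 (95% interval -0.21 to 0.40), not called except on thinned counts (0.55, edgeR FDR = 0.0399). Aldh1a2 rose 3.92-fold in wildtype (edgeR FDR = 0.00453), and its rise in Nr6a1-/- from 5 to 21 counts (edgeR FDR = 0.037) was lost in 3 of 13 alternatives.

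From d2.5 to d3 Dhrs3 rose 15.8-fold in wildtype and 19-fold in Nr6a1-/- (edgeR FDR = 1.44e-10 and 2.68e-11). Cyp26a1 rose 4.69-fold in wildtype (edgeR FDR = 1.33e-06) and in Nr6a1-/- went from 1 to 67 counts (edgeR FDR = 6.33e-09). Crabp2, Stra6, Crabp1 and Rarg also rose in both genotypes, Crabp2 by 5-fold in wildtype and 2.62-fold in Nr6a1-/-. Aldh1a2 rose 8.94-fold in Nr6a1-/- (edgeR FDR = 3.05e-10) and was not called in wildtype (log2 0.82, edgeR FDR = 0.129). Over d2 to d3 as a whole, the change itself differed between genotypes for 2 of the 8 genes, both smaller in Nr6a1-/- (2.27% of all genes were called): Crabp1 (log2 -1.64 ± 0.184, edgeR FDR = 2.13e-07) and Crabp2 (log2 -0.76 ± 0.181, edgeR FDR = 0.0133), the latter not called without wildtype d2 replicate 2 (edgeR FDR = 0.0622).

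The d3 to d4 change was larger in Nr6a1-/- for 5 of the 8 genes and smaller for 0, where 5.72% of all genes were called. On the log2 scale the excess was 3.61 ± 0.336 for Aldh1a2 (edgeR FDR = 2.94e-09), 2.39 ± 0.244 for Dhrs3 (1.63e-08), 2.12 ± 0.131 for Crabp1 (6.76e-14), 2.03 ± 0.234 for Stra6 (1.76e-07) and 1.25 ± 0.307 for Cyp26a1 (0.01). With these rises Aldh1a2 and Dhrs3 moved apart between the genotypes, whereas Crabp1, Cyp26a1 and Stra6 had been lower in Nr6a1-/- at d3 and at d4 were not. Aldh1a2 rose 16.2-fold in Nr6a1-/- over that day and 1.32-fold, not called, in wildtype. Stra6 rose 4.81-fold and 1.18-fold, the latter not called, Crabp1 12.5-fold and 2.89-fold, and Cyp26a1 3.19-fold and 1.34-fold, the latter not called. Dhrs3 rose 7.42-fold in Nr6a1-/-, and its 1.42-fold rise in wildtype (edgeR FDR = 0.0352) held in 7 of 14 alternatives. The single fall, that of Rarg in Nr6a1-/- (log2 -0.35, edgeR FDR = 0.0366), held in 6 of 14.

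Gdf11 lowered Aldh1a2 and Crabp2 and raised Crabp1 and Stra6 in both genotypes. In wildtype 3 of the 8 genes were higher and 2 lower at d4G than at d4 (28.8% of all genes were called), and in Nr6a1-/- 3 were higher and 4 lower (18%). Stra6 rose 2.43-fold in wildtype and 1.9-fold in Nr6a1-/- (edgeR FDR = 3.12e-09 and 1.25e-06), and Crabp1 rose 1.63-fold and 1.36-fold (edgeR FDR = 3.9e-08 and 0.000155). Dhrs3 was 1.41-fold lower in Nr6a1-/- (edgeR FDR = 0.00607, lost without d4 Nr6a1-/- replicate 2, 0.0669) and not called in wildtype (log2 -0.37, edgeR FDR = 0.105). Rara was 1.73-fold higher in Nr6a1-/- (edgeR FDR = 0.0108, held in 10 of 14 alternatives) and not called in wildtype (log2 0.42) unless d4 wildtype replicate 1 was left out (0.77, edgeR FDR = 0.00898). The difference in Rara response between genotypes was itself not called (0.36, 95% interval -0.28 to 1.01). Rarg was called in neither genotype (log2 -0.11 and 0.05).

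The response to Gdf11 differed between genotypes for 3 of the 8 genes, all with a more negative response in Nr6a1-/-, where 2.66% of all genes were called. Aldh1a2 was 17.3-fold lower at d4G than at d4 in Nr6a1-/- and 2.87-fold lower in wildtype, a log2 difference of -2.59 ± 0.422 (edgeR FDR = 0.000136). Crabp2 was 4.74-fold and 2.61-fold lower, a difference of -0.86 ± 0.178 (edgeR FDR = 0.00295). Cyp26a1 responded in opposite directions: it was higher by 0.60 ± 0.178 in wildtype and lower by 0.74 ± 0.212 in Nr6a1-/- on the log2 scale, a difference of -1.34 ± 0.276 (edgeR FDR = 0.00281). Each of these Cyp26a1 responses depended on single libraries: without d4G wildtype replicate 2 the first was 0.45 (edgeR FDR = 0.0976), and without d4 Nr6a1-/- replicate 2 or d4G Nr6a1-/- replicate 3 the second was -0.48 (edgeR FDR = 0.14) or -0.62 (edgeR FDR = 0.0822). The difference between them was called in 19 of 20 alternatives. Aldh1a2 in Nr6a1-/- was at 21.7 ± 3.32 CPM at d4G (SD, n = 3), against 12 ± 0.815 CPM in wildtype without Gdf11.

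**Figure D4:**
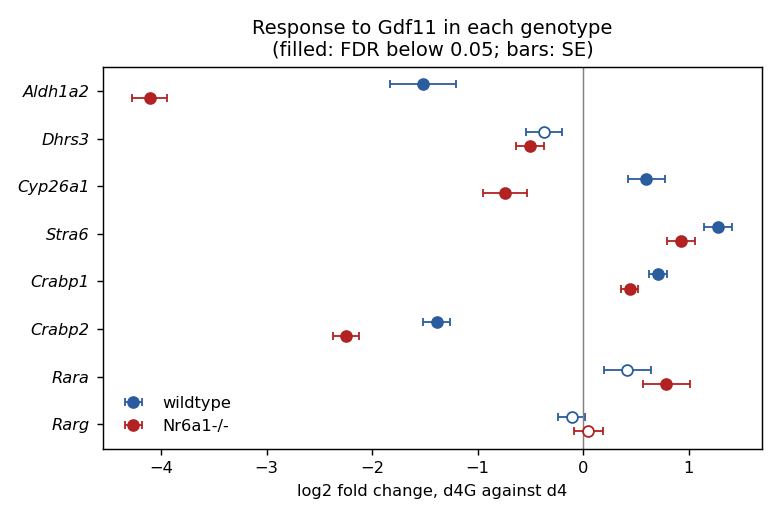
Log2 fold change of d4G against d4 in wildtype (blue) and Nr6a1-/- (red) for the 8 tested genes, with bars for the standard error (3 libraries per group) and filled points for an edgeR FDR below 0.05. Aldh1a2 is at -1.52 in wildtype and -4.11 in Nr6a1-/-, and Cyp26a1 lies on opposite sides of 0, at 0.60 and -0.74.

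Beyond these 9, 56 further genes of retinoid handling, receptors, coregulators and textbook responses were listed, of which 36 could be tested. In Nr6a1-/- against wildtype 1 of them was higher and 4 lower at d2. The d2.5 contrast called 8 higher and 3 lower, that at d3 6 higher and 6 lower, that at d4 13 higher and 3 lower, and that at d4G 6 higher and 2 lower, beside the shares of all genes called given above. Their median log2 difference was between -0.02 and 0.06 at each stage except d4, where it was 0.26.

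Of the 9 tested genes of retinol uptake, binding and storage, Stra6 included, 3 were higher and 2 lower in Nr6a1-/- at d4 (18.9% of all genes called), and 1 was higher and 3 lower at d3 (10.8%). Stra6 was among the 3 in each case. Lpl, a lipase that helps free retinyl esters, was 5.42-fold higher at d4 (edgeR FDR = 2.14e-11). The endocytic receptor Lrp2 was 2.57-fold lower at d3 (edgeR FDR = 0.0119) and 6.45-fold lower at d4. Ttr, the plasma carrier of the retinol-binding protein and an endoderm marker, went from 93 counts in wildtype to 5 in Nr6a1-/- at d4G.

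Of the enzymes, 1 of 5 listed for retinoic acid synthesis and 1 of 3 for its breakdown could be tested, namely Aldh1a2 and Cyp26a1, and of the Rxr partners Rxra and Rxrb were called at no stage. Rxrg was 2.71-fold higher in Nr6a1-/- at d3 and 4.74-fold at d4 (edgeR FDR = 0.00247 and 0.000507). Of 7 tested coregulators, genes that repress or activate transcription with the receptors, at most 1 was called at any stage; Ncoa1, a coactivator, was 2.07-fold lower at d3 and 2.04-fold higher at d4G.

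Of 12 genes with a textbook response to retinoic acid, 9 were tested, and 8 were higher and 0 lower at d4 in Nr6a1-/- (median log2 0.89), where 18.9% of all genes were called in either direction. At d2 3 of the 9 were lower and 0 higher (4.07% of all genes), in the d2.5 libraries 5 were higher and 1 lower (6.45%), and with Gdf11 4 were higher and 0 lower (7.9%). Hoxb1 was 1.63-fold higher at d2.5 and Cdx1 1.66-fold higher at d3. At d3 4 were higher and 3 lower (10.8% of all genes). Stra8, named for its induction by retinoic acid, was 3.97-fold lower at d2.5 and 3.76-fold lower at d3 (edgeR FDR = 9.7e-06 and 4.95e-05). The members, Cyp26a1 included, were not in this list. From d2 to d2.5, the first 12 h of CHIR99021, 6 of the 9 rose and 1 fell in each genotype (25.4% of all genes called in wildtype and 24.1% in Nr6a1-/-). Retinoic acid itself was not measured, and which signal moved these genes was not tested.

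**Figure D5:**
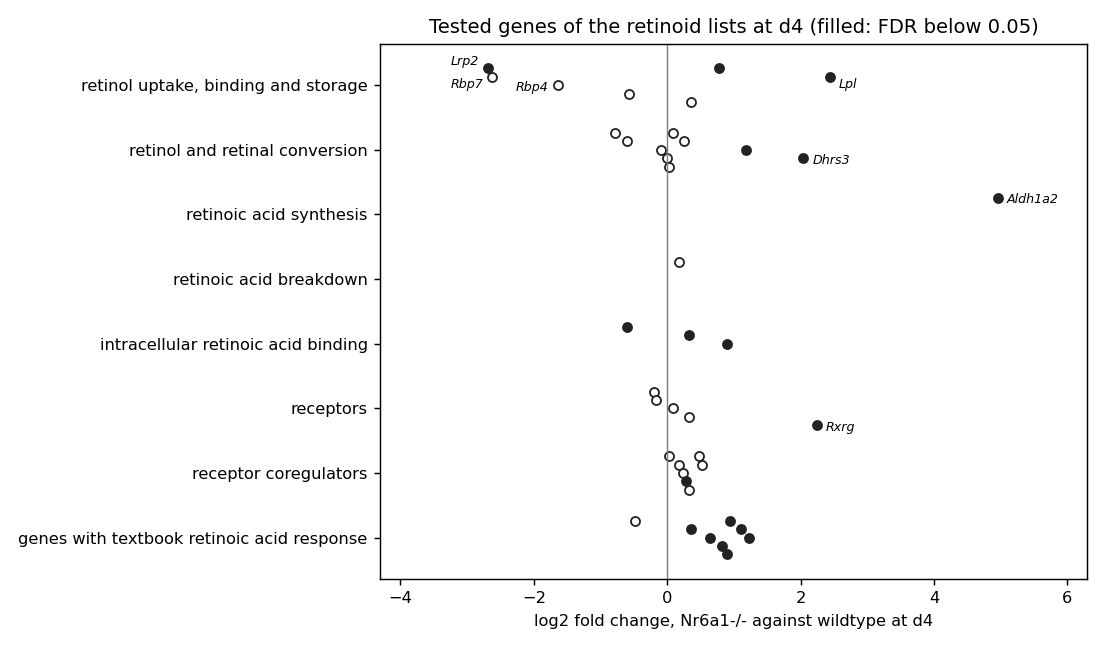
Log2 fold change of Nr6a1-/- against wildtype at d4 for the tested genes of 8 retinoid lists (3 libraries per group), with filled points for an edgeR FDR below 0.05 and the vertical position within a list set only to separate points. Ttr, at 0 counts in Nr6a1-/- at d4, and 2 genes not reported here are left out; Aldh1a2 at 4.96 lies farthest from 0 among those shown.

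The order of levels across groups set the members apart. From the lowest group mean to the highest, Crabp1 spanned 55.8-fold, Crabp2 13.6-fold, Rarg 2.53-fold and Rara 1.86-fold, while Aldh1a2, Cyp26a1, Dhrs3 and Stra6 started from group means below 2 CPM. Over the 10 group means of log2 CPM, Stra6 and Crabp1 were the closest pair (Pearson's r = 0.957), followed by Cyp26a1 and Crabp1 (0.917), whereas Crabp2 was less like Crabp1 (0.302). Aldh1a2 was most like Dhrs3 among the members (0.813) and less like Cyp26a1 (0.644). The groups share a time course, so these values describe shape over 10 points and are given with no test.

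Among all tested genes that reached 10 CPM in some group, those whose 10 group means were most like Aldh1a2 were Ptgds (r = 0.954), which makes prostaglandin D2, Pccb (0.938), a subunit of a mitochondrial carboxylase, and Lhx1 (0.937), a LIM homeobox factor. Those most like Cyp26a1 were Id1 (0.979), an inhibitor of helix-loop-helix factors, Rasa3 (0.971) and Pdgfra (0.963), a growth factor receptor of mesoderm. Dhrs3 was nearest to Saal1 (0.989), Crabp1 to Commd10 (0.986), Stra6 to the ligand gene Efna3 (0.989) and Crabp2 to Cenpw (0.934). Rara was nearest to Dstyk (0.964) and Rarg to Sun1 (0.911).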

How the data were processed

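Libraries were primed at the poly(A) tail with indexed primers carrying a molecular identifier, aligned to mm10 with STAR per the submitters' processing notes, and deposited by the authors as raw counts per gene; whether identifiers were collapsed, the strand setting and the counting tool are not given in the sources used here. Depth was 1570714 to 3688197 counts per library, and intervals on counts hold for counting error alone. A further 5 deposited tables list the authors' genes differing between genotypes (log2 fold changes, p-values, FDR, counts and CPM) and were not used. A gene was tested if 2 or more libraries of any 1 group exceeded both 10 counts and 2 CPM (12149 genes), with TMM factors in edgeR 4.0.16 (R 4.3.3), 1 quasi-likelihood model of 10 groups, 16 contrasts and Benjamini-Hochberg adjustment over all tested genes, after a check on simulated data. Gene positions come from GENCODE (GRCm38). Date-like row names (26) and repeated symbols (2) were left as deposited. In 30 pairs of replicates the chi-square per gene was 1.45 to 6.68, where sampling alone gives about 1. The highest values, 5.64 and 6.68, were those of pairs with d4 Nr6a1-/- replicate 1. The members, lists and tests were chosen with earlier results of these data known. Genes outside the members were named where they were called, reached a mean of 10 CPM, and were among the 3 largest rises or falls at a stage; further values of genes so named, and Rxra and Rxrb, were added after they were seen. Values of 2 genes that met this rule are not reported here, though counts over lists include them. Alternatives were DESeq2 1.42.0, RLE or no factors in place of TMM, no filter or a 5 CPM filter, thinned counts, only the libraries compared, a replicate block and leaving out each library.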

Additional observations from a re-analysis of the deposited data

Results flagged for a closer look

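In 10 instances the change of a gene differed between wildtype and Nr6a1-/- by a test of the difference itself, each as a log2 value of Nr6a1-/- minus wildtype at an edgeR FDR below 0.05. For the d3 to d4 change the differences were 3.61 for Aldh1a2, 2.39 for Dhrs3, 2.12 for Crabp1, 2.03 for Stra6 and 1.25 for Cyp26a1, and the last was not called on thinned counts (1.49, edgeR FDR = 0.0525). For the response to Gdf11 they were -2.59 for Aldh1a2, -1.34 for Cyp26a1 and -0.86 for Crabp2, where Cyp26a1 was not called on thinned counts (-1.27, edgeR FDR = 0.0951). For the d2 to d3 change they were -1.64 for Crabp1 and -0.76 for Crabp2, and Crabp2 was not called on thinned counts (-0.65, edgeR FDR = 0.107). The 3 sets share d3 or d4 libraries and are not independent of one another. The groups held 3 libraries each, too few to test a single library within a group.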

How the results depend on the processing

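Over the members' called values, 1046 results under an alternative kept direction and call, 46 kept direction only and 0 changed sign. With counts thinned to the smallest library, the counts of all genes called were 280 at d2, 457 at d2.5, 782 at d3, 894 and 1586 for the wildtype steps d2.5 to d3 and d3 to d4, 1254 for d2.5 to d3 in Nr6a1-/-, and 202, 154 and 428 for the differences in Gdf11, d2 to d3 and d3 to d4 response. With only the libraries compared they were 1398 at d4, and 212 and 440 for the Gdf11 and d3 to d4 differences. Leaving out 1 library gave 304 to 392 at d2, 478 to 775 at d2.5, 871 to 1084 at d3 and 1487 to 2625 at d4, 205 to 823 for the Gdf11 difference and 443 to 1157 for that from d3 to d4; the highest of the last 2 came without d4 Nr6a1-/- replicate 1, and 205 without its replicate 3. Members called at d2 were 1 by DESeq2, thinned counts or only the libraries compared, and 1 to 2 without 1 library, as was the d2 to d3 difference (1 thinned), and for Gdf11 in Nr6a1-/- 4 to 7. The d2.5 balance difference was 2.24 in place of 2.92 with 1 count added. Values that changed sign were all uncalled. Thinning gave 0.06 for Rara at d2.5, and -0.02 and 0.00 for its steps d2.5 to d3 and d3 to d4 in Nr6a1-/-. It gave -0.13 for Crabp2 at d4G, which was -0.01 without TMM. For the difference between genotypes in the d2 to d3 change of Dhrs3 it gave -0.42. Without 1 library, Rara ranged from -0.18 to 0.06 at d2, -0.28 to 0.10 at d2.5 and -0.16 to 0.43 at d4, and over the steps from -0.00 to 0.35 (d2 to d2.5, wildtype), -0.01 to 0.28, -0.10 to 0.19 and -0.30 to 0.06 (Nr6a1-/-). Rarg ranged from -0.12 to 0.10 at d4G and -0.07 to 0.17 for Gdf11 in Nr6a1-/-, and Crabp2 from -0.03 to 0.08 at d4G. Cyp26a1 ranged from -0.08 to 0.35 at d4 and -2.63 to 1.72 from d2 to d2.5 in Nr6a1-/-. Crabp1 ranged from -0.03 to 0.18 from d2 to d2.5 in Nr6a1-/-. The difference between genotypes in the d2 to d3 change ranged from -0.08 to 0.57 for Dhrs3 and -1.20 to 0.24 for Stra6. Same-numbered libraries of the genotypes did not deviate together (correlations -0.111 to 0.0559, 5 of 15 best matched by their own number), and a replicate block moved the count at d4 from 2294 to 2383. Causes were not tested. Depth limits Cyp26a1, Aldh1a2, Dhrs3 and Stra6 at d2, and Rarb at every stage.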
